A study of Homo sapiens with 6 samples.

Results

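The transcripts described here are the long non-coding RNAs of A375 cells whose names end in -AS and a number, the form given to RNAs named after a gene on the opposite DNA strand. A375 is an established human melanoma line. They were chosen by name, with earlier results of these data known, and 103 of the 2778 features in the deposited count table carry such a name. The libraries form 2 groups of 3: untreated wildtype A375 cells (WT) and untreated A375 cells that overexpress CYGB, the gene for cytoglobin, a heme protein of the globin family (CYGB-OE). The labels name no empty-vector control, promoter or clone for the overexpressing cells, and nothing in them says whether replicates were grown as separate cultures. The p-values below therefore describe library-to-library spread, which may be technical only. RNA was total RNA enriched on oligo-dT beads, so a transcript without a poly(A) tail is under-represented.

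An antisense long non-coding RNA is transcribed from the strand opposite another gene, called the sense gene. Many start near the sense gene's own start, where an open promoter can be read outwards in both directions, and others start inside the gene or beyond its far end. Some are known to change the expression of their neighbour by altering chromatin, by interfering with passing polymerase or by pairing with its transcript, while others act elsewhere in the cell, host small nucleolar RNAs in their introns or have no known role.

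Most of the antisense RNAs were lower in CYGB-OE. Of the 103, 95 had enough counts to be tested, and of these 80 fell and 15 rose (edgeR quasi-likelihood test, adjusted p under 0.05), with a median log2 fold change of -1.49 against -1.3 over all 2465 features tested. The whole table leaned the same way, as 99.8% of its tested features were called, 71.5% as lower and 28.3% as higher. The table holds only features that differ about 2-fold or more, in either direction, so a call tells nothing about an RNA beyond its presence in the table. The 3 WT and 3 CYGB-OE values did not overlap for 101 of the 103, with 85 lower and 16 higher, where 98.3% of all features did not overlap, 70.1% as lower and 28.3% as higher. Direction also rests on how the groups were scaled, because the table holds no unchanged genes: scaling with TMM factors over the whole table moved the log2 fold changes of the named genes up by 1.15 to 1.2 and called 16 antisense RNAs higher and 11 lower, of 93 tested. Under that scaling 30% of all 2481 features tested were called higher and 18.7% lower.

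**Figure D1:**
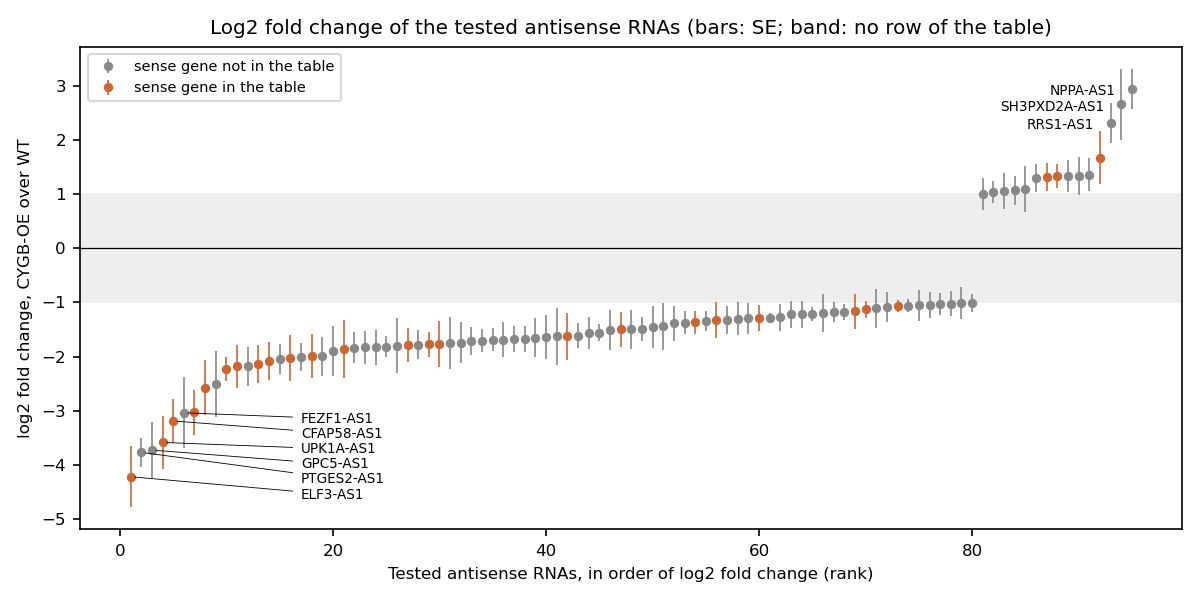
Log2 fold change of the 95 tested antisense RNAs, CYGB-OE over WT (vertical axis), in rank order (horizontal axis); points are fitted values, bars are standard errors, and the grey band is the range in which the table has no feature. ELF3-AS1, the RNA with the lowest value, lies at -4.22 and NPPA-AS1, the highest, at 2.94, and 80 points lie below 0.

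CYGB itself checked the labels, with a mean normalized count (deposited count scaled for library size) of 37.6 in WT and 23684 in CYGB-OE. The table's column totals ran from 1533260 to 2801576 counts and are sums over selected features, not library depths. CYGB-OE replicate 1 stood apart from replicates 2 and 3: its median absolute log2 difference from them over the antisense RNAs was 0.512 and 0.540, against 0.283 between replicates 2 and 3 and at most 0.259 between WT libraries. Without it, 83 antisense RNAs were called lower and 15 higher, where 71.4% of all features tested were called lower and 27.6% higher. Few markers of other cell types were in the table, and they moved in both directions. Of 6 keratinocyte markers KRT14 was present (log2 fold change 1.88; 13.8 to 20.5 normalized counts in WT, 51.8 to 68.1 in CYGB-OE), and of 7 fibroblast markers COL1A2 (5.91; 0 to 3.16 and 36.3 to 173). Of 5 endothelial markers KDR (-3.56) and TIE1 (-2.05) were present, with summed counts of 166 to 191 in WT and 16.8 to 34.1 in CYGB-OE, and of 5 leukocyte markers ITGAM (-5.43; 79.8 to 117 and 0 to 6.4). Of 10 melanocyte markers, EDNRB (-1.5) and TYRP1 (-2.53) were lower and DCT was not tested, with summed counts of 1727 to 1909.9 in WT and 583 to 706 in CYGB-OE. Their part in the results below was not tested, and in such bulk samples fewer cells of a type and less RNA per cell cannot be told apart.

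Of the antisense RNAs, 102 were found by gene identifier in GENCODE release 29 on GRCh38, the build named by the submitters' processing notes. There, 76 are typed antisense, 16 lincRNA and 8 processed transcript. A gene on the opposite strand overlaps 89 of them, but shared exon sequence is sparse: 68 share any with an opposite-strand gene, 34 share none, and the median share of exonic length is 5.98%. The library protocol covers kits that keep the strand and kits that do not, and no strand setting for the counting was given in the sources used here. Reads from shared exons therefore cannot be assigned to a strand with certainty, and a value of either partner may hold reads of the other.

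The sense gene was itself in the table for 27 of the 103. In 22 of these pairs (81.5%) both partners lay on the same side: both lower in 21 and both higher in PRR34-AS1 and PRR34. Opposite sides were found in 5 pairs. In 3 of them the antisense RNA was the higher partner in CYGB-OE (ACTA2-AS1, C1RL-AS1, TMEM108-AS1), and in 2 the sense gene was (SLC2A1-AS1, TM4SF19-AS1). These counts stand beside a table in which 70.7% of all features were lower. Among these pairs, 23 of the 27 antisense RNAs were lower, as were most of the sense genes. Many unrelated partners would then share a side, and the agreement was not tested against this. TMM scaling over the table gave 15 pairs on the same side and 9 on opposite sides among the pairs tested. The pairs on each side also changed. C1RL turned to 0.08 beside 2.52 for C1RL-AS1, which put that pair on the same side. Values that turned above 0 under TMM were not called.

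The start regions below belong to pairs whose starts lie close together or whose partners went opposite ways. Each is the RefSeq promoter (GRCh38.p14), 250 bases before to 50 bases after the start of the gene named first, read 5′ to 3′ on that gene's strand, so that the start is at position 251. Capitals mark matches, on either strand, to 6 motifs. For the TATA box the letters searched were TATAAA, for the GC box GGGCGG, for the AP-1 site TGANTCA and for the E-box CACGTG. The CCAAT box was searched by the letters of its name and the NF-kB site by its consensus, and no motif searched is part of another. RefSeq held a promoter for 66 of the 103 antisense RNAs.
ELF3, chr1:202010337-202010636, plus strand: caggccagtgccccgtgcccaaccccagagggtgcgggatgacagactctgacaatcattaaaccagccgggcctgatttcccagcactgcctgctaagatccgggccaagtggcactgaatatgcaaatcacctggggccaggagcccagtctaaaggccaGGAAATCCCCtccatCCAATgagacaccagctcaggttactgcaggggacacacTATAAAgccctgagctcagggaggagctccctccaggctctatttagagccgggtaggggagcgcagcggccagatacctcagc
HHIP, chr4:144645906-144646205, plus strand: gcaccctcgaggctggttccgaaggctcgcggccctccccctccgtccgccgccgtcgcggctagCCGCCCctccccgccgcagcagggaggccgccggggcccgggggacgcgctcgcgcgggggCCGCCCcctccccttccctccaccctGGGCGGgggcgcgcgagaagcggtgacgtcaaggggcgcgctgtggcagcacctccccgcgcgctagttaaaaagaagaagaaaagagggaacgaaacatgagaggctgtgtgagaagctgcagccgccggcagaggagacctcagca
LMCD1, chr3:8501573-8501872, plus strand: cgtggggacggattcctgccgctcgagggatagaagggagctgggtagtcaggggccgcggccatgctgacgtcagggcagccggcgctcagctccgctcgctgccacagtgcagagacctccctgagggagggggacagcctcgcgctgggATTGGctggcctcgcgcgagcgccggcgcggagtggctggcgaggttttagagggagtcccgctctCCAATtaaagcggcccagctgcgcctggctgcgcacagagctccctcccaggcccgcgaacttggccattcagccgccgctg
SLC2A1, chr1:42958819-42959118, minus strand: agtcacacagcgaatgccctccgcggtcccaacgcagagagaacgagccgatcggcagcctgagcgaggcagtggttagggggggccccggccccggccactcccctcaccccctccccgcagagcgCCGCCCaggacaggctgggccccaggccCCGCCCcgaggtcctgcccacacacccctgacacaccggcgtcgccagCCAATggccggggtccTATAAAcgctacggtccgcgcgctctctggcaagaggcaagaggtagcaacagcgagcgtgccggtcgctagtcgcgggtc
C1RL-AS1, chr12:7108058-7108357, plus strand: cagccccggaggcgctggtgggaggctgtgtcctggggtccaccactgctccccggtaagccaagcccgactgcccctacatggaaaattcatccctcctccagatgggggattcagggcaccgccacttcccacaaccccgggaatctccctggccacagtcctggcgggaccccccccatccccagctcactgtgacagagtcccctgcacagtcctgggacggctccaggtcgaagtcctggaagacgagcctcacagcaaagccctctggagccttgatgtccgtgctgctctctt

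In the ELF3 window, ELF3-AS1 starts at position 17 and runs the other way, 234 bp from the ELF3 start. An NF-kB match lies at positions 163 to 172, a CCAAT box at 178 to 182 and a TATA box at 217 to 222. HHIP-AS1 starts at position 114 of the HHIP window, among 3 GC boxes and 36 CpG dinucleotides. LMCD1-AS1 starts at position 86 of the LMCD1 window, which has 2 CCAAT boxes. The SLC2A1 window holds 2 GC boxes, a CCAAT box and a TATA box, and the GENCODE start of SLC2A1-AS1 (chromosome 1, position 42959049) falls inside it. The C1RL-AS1 window matched none of the 6 motifs, and the C1RL start lies 906 bp away. Across all 35116 RefSeq promoters, 45% hold a GC box, 34.6% a CCAAT box, 11.5% a TATA box, 7.71% an AP-1 site, 7.26% an E-box and 1.91% an NF-kB site. GC boxes were present in 32 of 55 promoters of lower antisense RNAs (58.2%) and in 3 of 11 of higher ones (27.3%). The same shares, lower then higher, were 12.7% and 18.2% for the TATA box, 25.5% and 36.4% for the CCAAT box, 9.09% in both for the AP-1 site, 7.27% and 18.2% for the E-box and 3.64% and 9.09% for the NF-kB site. None of these splits was tested. The median number of CpG dinucleotides was 21 in the antisense promoters against 14 in all promoters. The latter were not limited to genes found in these cells, and other genes of the table were not compared. These are matches of letters in a fixed window, not binding sites.

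Among pairs in which both partners fell, ELF3-AS1 and ELF3, an ETS-family transcription factor of epithelia, had the lowest log2 fold changes. ELF3-AS1 had 24.2, 32.4 and 25.5 normalized counts in WT and 3.2, 0 and 0.909 in CYGB-OE. ELF3 had 1059, 1009 and 979 in WT and 33.1, 3.35 and 5.45 in CYGB-OE. Neither gene's groups overlapped, and CYGB-OE replicate 1 was the highest of its group for both. The log2 fold change was -4.22 ± 0.56 (SE; edgeR adjusted p = 0.000134) for the antisense RNA and -6.19 ± 0.59 (edgeR adjusted p = 7.24e-05) for ELF3. Without CYGB-OE replicate 1 they were -5.48 and -7.78. The partners share 664 bp of exon, so the counts of ELF3-AS1 may hold reads of ELF3.

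HHIP-AS1 ran beside HHIP, whose protein binds Hedgehog ligands and dampens their signal. The antisense RNA had 17.6, 22.1 and 17 normalized counts in WT and 3.2, 4.47 and 5.45 in CYGB-OE. HHIP had 74.8, 75.9 and 65.9 in WT and 9.60, 8.93 and 18.2 in CYGB-OE. Both were lower in every CYGB-OE library, by log2 fold changes of -2.08 ± 0.35 and -2.53 ± 0.32. LMCD1-AS1, an RNA that spans the whole of LMCD1 (a LIM-domain protein gene) and reaches far past it, had 36.3, 30 and 51.0 in WT and 12.8, 20.1 and 13.6 in CYGB-OE. LMCD1 had 1821, 1909.5 and 2070.4 in WT and 636, 613 and 629 in CYGB-OE. This gave log2 fold changes of -1.33 ± 0.33 for LMCD1-AS1 and -1.63 ± 0.10 for LMCD1, and the pair shares no exon.

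Some pairs concerned matrix and growth-factor genes. IGFBP7-AS1 had 63.8, 60.9 and 63.8 normalized counts in WT and 20.3, 15.6 and 7.27 in CYGB-OE. IGFBP7, a secreted binding protein of insulin-like growth factors, had 1619.9, 1611 and 1597 in WT and 247, 260.2 and 273 in CYGB-OE. Their log2 fold changes were -2.14 ± 0.35 and -2.63 ± 0.10, and neither overlapped between groups. ADAMTS9-AS2 had 35.2, 37.9 and 30.8 in WT and 13.9, 8.93 and 3.64 in CYGB-OE. Its sense gene ADAMTS9, a secreted metalloproteinase of the ADAMTS family, had 499, 475 and 507 in WT and 281, 122 and 86.3 in CYGB-OE. In both, CYGB-OE replicate 1 lay nearest to WT, and the log2 fold changes were -2.0 ± 0.41 and -1.60 ± 0.41, the latter reaching -2.26 without that library.

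GDNF-AS1 covers GDNF, a neurotrophic factor gene. It had 66.0, 75.9 and 86.1 normalized counts in WT and 36.3, 26.8 and 30 in CYGB-OE. GDNF had 768, 901 and 809 in WT and 439, 354 and 344 in CYGB-OE. The groups were apart for both, with log2 fold changes of -1.29 ± 0.24 and -1.12 ± 0.14, of which that of GDNF turned to 0.08 under TMM over the table. LAMA5-AS1 lies within LAMA5, which encodes the laminin alpha-5 chain of basement membranes. It had 30.8, 12.6 and 25.5 in WT and 7.47, 8.93 and 5.45 in CYGB-OE. LAMA5 had 14299, 13204 and 15112 in WT and 6189, 6889 and 6840.4 in CYGB-OE. Log2 fold changes were -1.63 ± 0.43 and -1.1 ± 0.09, and that of LAMA5 turned to 0.10 under TMM over the table.

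Pairs of metabolic, transport and membrane genes followed. CYP1B1-AS1 had 22.0, 13.4 and 15.9 normalized counts in WT and 5.33, 1.12 and 1.82 in CYGB-OE. CYP1B1, a cytochrome P450 that oxidises steroids and aromatic hydrocarbons, had 366, 361 and 397 in WT and 65.1, 35.7 and 66.3 in CYGB-OE. Both groups were apart, with log2 fold changes of -2.58 ± 0.51 and -2.74 ± 0.23. Without CYGB-OE replicate 1 that of CYP1B1-AS1 was -3.39. This pair shares 678 bp of exon, the most of any pair, so the antisense counts may hold reads of CYP1B1. SLC44A3-AS1 had 35.2, 31.6 and 19.1 in WT and 4.27, 2.23 and 3.64 in CYGB-OE. SLC44A3, of the choline transporter-like family, had 28.6, 22.1 and 29.8 in WT and 5.33, 10.1 and 11.8 in CYGB-OE. The antisense RNA changed by -3.03 ± 0.42 and SLC44A3 by -1.53 ± 0.35 on the log2 scale, and neither overlapped between groups.

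UPK1A-AS1 had 64.9, 94.1 and 67.0 normalized counts in WT and 12.8, 3.35 and 2.73 in CYGB-OE. UPK1A, a uroplakin of the bladder lining, had 30.8, 19.0 and 24.4 in WT and 7.47, 3.35 and 5.45 in CYGB-OE. All CYGB-OE values lay under all WT values, with log2 fold changes of -3.59 ± 0.48 and -2.14 ± 0.38. Without CYGB-OE replicate 1 that of UPK1A-AS1 was -4.60. CFAP58-AS1, which starts 189 bp from CFAP58 and points away from it, had 45.1, 28.5 and 52.1 in WT and 6.40, 3.35 and 3.64 in CYGB-OE. CFAP58, a gene of cilia and flagella, had 27.5, 12.6 and 21.3 in WT and 4.27, 2.23 and 5.45 in CYGB-OE. The pair's log2 fold changes were -3.19 ± 0.41 and -2.26 ± 0.46.

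ITGB2-AS1 lies within ITGB2, the beta-2 integrin chain of leukocytes. It had 121, 109 and 116 normalized counts in WT and 20.3, 26.8 and 26.4 in CYGB-OE. ITGB2 had 52.8, 53.0 and 61.6 in WT and 19.2, 32.4 and 24.5 in CYGB-OE. Both were lower in all CYGB-OE libraries, by log2 fold changes of -2.23 ± 0.22 and -1.14 ± 0.27, and that of ITGB2 turned to 0.06 under TMM over the table. KCNK15-AS1 had 34.1, 29.2 and 56.3 in WT and 9.60, 14.5 and 5.45 in CYGB-OE. KCNK15, a potassium channel subunit, had 15.4, 19.8 and 28.7 in WT and 3.2, 10.1 and 4.54 in CYGB-OE, and the log2 fold changes of the pair were close at -2.02 ± 0.42 and -1.84 ± 0.45.

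Transcription factor and RNA-binding genes made up a further group. MSC-AS1 had 383, 346 and 376 normalized counts in WT and 135, 70.4 and 117 in CYGB-OE. MSC, a basic helix-loop-helix repressor, had 591, 634 and 631 in WT and 319, 121 and 140.0 in CYGB-OE. The log2 fold changes, -1.77 ± 0.23 and -1.68 ± 0.36, were nearly equal. ZNF385D-AS1 had 15.4, 26.9 and 18.1 in WT and 4.27, 3.35 and 5.45 in CYGB-OE. ZNF385D, a zinc finger gene, had 178, 236 and 212 in WT and 55.5, 89.3 and 59.1 in CYGB-OE. Their values of -2.18 ± 0.39 and -1.62 ± 0.23 on the log2 scale came from groups that did not overlap. RBPMS-AS1 had 53.9, 30 and 31.9 in WT and 14.9, 19.0 and 17.3 in CYGB-OE. RBPMS, an RNA-binding protein gene, had 549.9, 473 and 537 in WT and 201, 260.2 and 238 in CYGB-OE. Both log2 fold changes were -1.16, with SEs of 0.33 and 0.14, and turned to 0.03 and 0.04 under TMM over the table.

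The remaining pairs with both partners lower included neuronal and surface genes. KIRREL3-AS1 had 36.3, 36.4 and 34.0 normalized counts in WT and 6.40, 11.2 and 12.7 in CYGB-OE. KIRREL3, an adhesion molecule of the immunoglobulin family, had 135, 132 and 121 in WT and 42.7, 53.6 and 50 in CYGB-OE. Both were lower in every CYGB-OE library, with log2 fold changes of -1.79 ± 0.31 and -1.41 ± 0.19. DLGAP1-AS2 had 799.5, 829 and 775 in WT and 458, 322 and 322 in CYGB-OE. DLGAP1, a scaffold gene of synapses, had 31.9, 30 and 15.9 in WT and 5.33, 11.2 and 12.7 in CYGB-OE. Their log2 fold changes were -1.13 ± 0.16, 0.07 with TMM over the table, and -1.40 ± 0.41. MELTF-AS1 had 228, 156 and 149.9 in WT and 69.3, 64.8 and 71.8 in CYGB-OE. MELTF, or melanotransferrin, an iron-binding surface antigen of melanoma cells, had 14040.3, 13332 and 13657 in WT and 7482, 5818 and 5941 in CYGB-OE. The pair's log2 fold changes were -1.37 ± 0.21 and -1.09 ± 0.11, the latter turning to 0.11 under TMM over the table.

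LURAP1L-AS1 and LURAP1L had the widest spread of the antisense to sense log2 ratio among CYGB-OE libraries (SD 1.92). The antisense RNA had 16.5, 21.3 and 14.9 normalized counts in WT and 1.07, 10.1 and 3.64 in CYGB-OE, and LURAP1L had 206, 159.7 and 149 in WT and 67.2, 31.3 and 34.5. Their log2 fold changes were -1.86 ± 0.54 and -1.95 ± 0.30, and that of the antisense RNA was -2.80 without CYGB-OE replicate 2. LURAP1L-AS1 shares no exon with LURAP1L but also overlaps TYRP1, which fell as well (-2.53). Of its exon sequence, 102 bp lie over opposite-strand exons, so its counts may hold reads of TYRP1.

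In these pairs with both partners lower, some calls were lost when p-values were adjusted over all annotated genes. Among the antisense RNAs they were LMCD1-AS1 (edgeR adjusted p = 0.0904), LAMA5-AS1 (0.131), RBPMS-AS1 (0.167) and LURAP1L-AS1 (0.199). Among the sense genes they were SLC44A3 (edgeR adjusted p = 0.0596), MSC (0.0693), ITGB2 (0.0781), KCNK15 (0.088), ADAMTS9 (0.152) and DLGAP1 (0.210). With TMM over the table, further antisense RNAs of these pairs stayed below 0 but lost their calls. They were ADAMTS9-AS2, GDNF-AS1, HHIP-AS1, IGFBP7-AS1, KCNK15-AS1, KIRREL3-AS1, LAMA5-AS1, LMCD1-AS1, LURAP1L-AS1, MELTF-AS1, MSC-AS1 and ZNF385D-AS1. Of all the sense genes tested, 10 likewise kept their sign and lost their calls.

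LRRC75A-AS1 (ENSG00000175061), on the plus strand of chromosome 17 from 16438822 to 16478678, is a host transcript that contains 3 small nucleolar RNA genes. It had 30625, 28506 and 27873 normalized counts in WT and 11589, 14891 and 15001 in CYGB-OE. Its sense gene LRRC75A had 205, 199.96 and 210.4 in WT and 52.3, 82.6 and 111 in CYGB-OE. The groups of both were apart, with log2 fold changes of -1.07 ± 0.11 and -1.32 ± 0.25, and that of LRRC75A-AS1 turned to 0.13 under TMM over the table. This RNA alone held 64.4% to 66.4% of the antisense counts in WT and 62.7% to 68.9% in CYGB-OE, as counts not corrected for length. All 103 together held 1.94% to 2.08% of the column totals in WT and 1.03% to 1.29% in CYGB-OE.

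PRR34-AS1 and PRR34 formed the pair that was higher on both sides. PRR34-AS1 had 50.6, 36.4 and 38.3 normalized counts in WT and 109, 114 and 90.9 in CYGB-OE. PRR34 had 5.50, 5.53 and 4.25 in WT and 38.4, 15.6 and 29.1 in CYGB-OE. Neither gene's groups overlapped, and the log2 fold changes were 1.33 ± 0.22 (edgeR adjusted p = 0.000478) and 2.41 ± 0.43 (edgeR adjusted p = 0.000671). The pair starts head to head on chromosome 22 and shares 171 bp of exon.

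**Figure D2:**
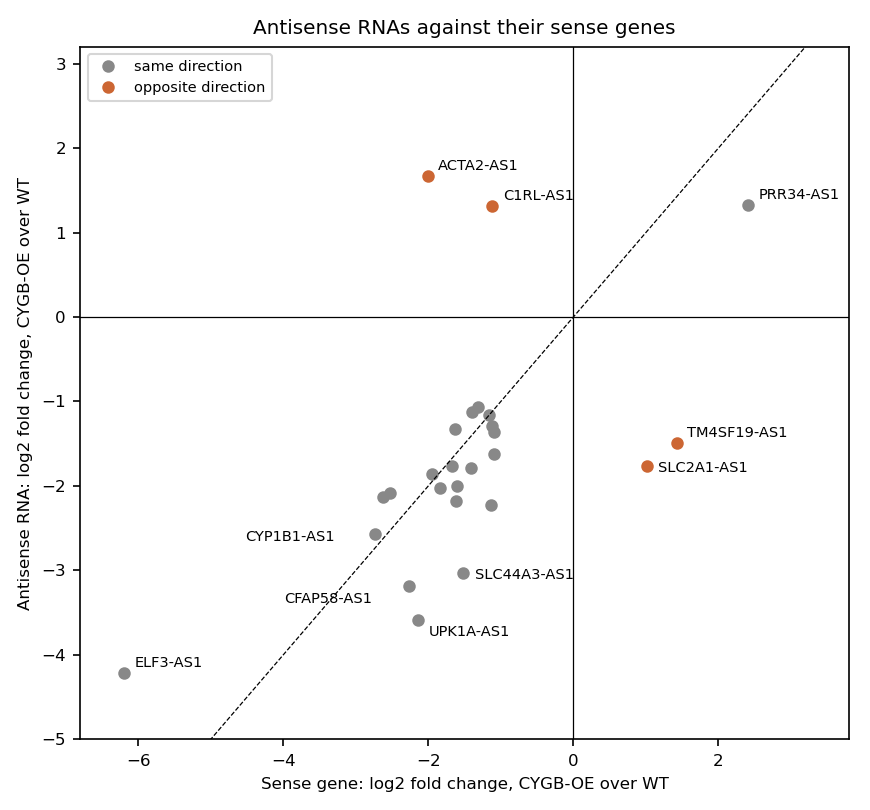
Log2 fold change, CYGB-OE over WT, of each antisense RNA (vertical axis) against that of its sense gene (horizontal axis) for the 26 pairs with both partners tested; the dashed line marks equal change, and colour marks pairs on opposite sides of 0. The 21 pairs with both partners lower fill the lower left, and 4 pairs lie on opposite sides of 0.

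The opposite pairs with the higher antisense RNA began with C1RL-AS1 (ENSG00000205885, chromosome 12, plus strand, 7108052 to 7122501), whose start region overlaps that of C1RL, a serine protease related to complement C1r. The antisense RNA had 122, 106 and 125 normalized counts in WT and 417, 252 and 209.9 in CYGB-OE. C1RL had 952, 941 and 952 in WT and 340.3, 510.3 and 462 in CYGB-OE. CYGB-OE replicate 1 was the highest for the antisense RNA and the lowest for C1RL, and neither gene's groups overlapped. The log2 fold changes were 1.32 ± 0.26 (edgeR adjusted p = 0.00118) and -1.12 ± 0.15 (edgeR adjusted p = 0.000159), and that of C1RL turned to 0.08 under TMM over the table. The partners share 205 bp of exon.

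ACTA2-AS1 (ENSG00000180139, chromosome 10, plus strand, 88932390 to 88940820) overlaps the 3′ end of ACTA2, the smooth muscle actin gene. It had 5.50, 7.11 and 3.19 normalized counts in WT and 27.7, 14.5 and 10.9 in CYGB-OE. ACTA2 had 939, 883 and 869 in WT and 126, 268 and 275 in CYGB-OE. As in the C1RL pair, CYGB-OE replicate 1 was highest for the antisense RNA and lowest for the sense gene, and the groups were apart. The log2 fold changes were 1.67 ± 0.48 (edgeR adjusted p = 0.00825) and -2.01 ± 0.27 (edgeR adjusted p = 0.000226), and the call of the antisense RNA was lost when p-values were adjusted over all annotated genes (edgeR adjusted p = 0.197).

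TMEM108-AS1 lies within TMEM108, a transmembrane protein gene, and had too few counts to be tested. Its deposited counts were 0, 0 and 1 in WT and 2, 19 and 40 in CYGB-OE, and the ratio of the group sums, scaled for library size, was 64.8 (95% interval 11.2 to 2600, counting error only). TMEM108 had 261, 259 and 341 normalized counts in WT and 102, 141 and 162 in CYGB-OE, a log2 fold change of -1.08 ± 0.21 that turned to 0.11 under TMM over the table. All CYGB-OE counts of the antisense RNA were above those of WT, but they differed widely among themselves.

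In the other 2 opposite pairs the antisense RNA was the lower partner. SLC2A1-AS1 (ENSG00000227533, chromosome 1, plus strand, 42959049 to 42983358) starts head to head with SLC2A1, which encodes the glucose transporter GLUT1. It had 15.4, 24.5 and 15.9 normalized counts in WT and 6.40, 7.82 and 2.73 in CYGB-OE. SLC2A1 had 2274, 2486 and 2317 in WT and 5554, 4315 and 4490.3 in CYGB-OE. Every CYGB-OE library was below WT for the antisense RNA and above it for SLC2A1. The log2 fold changes were -1.76 ± 0.43 (edgeR adjusted p = 0.00346) and 1.02 ± 0.12 (edgeR adjusted p = 6.23e-05). The call of SLC2A1-AS1 was lost when p-values were adjusted over all annotated genes (edgeR adjusted p = 0.0826). It was also lost with TMM over the table.

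TM4SF19-AS1 (ENSG00000235897, chromosome 3, plus strand, 196318330 to 196325570) overlaps the 3′ part of TM4SF19, a membrane protein gene, and shares 539 bp of exon with it. The antisense RNA had 24.2, 19.0 and 21.3 normalized counts in WT and 9.60, 5.58 and 7.27 in CYGB-OE. TM4SF19 had 42.9, 46.6 and 53.1 in WT and 147, 124 and 115 in CYGB-OE. The groups were apart in both directions, with log2 fold changes of -1.49 ± 0.32 (edgeR adjusted p = 0.00193) and 1.43 ± 0.20 (edgeR adjusted p = 0.000178). The call of TM4SF19-AS1 was lost with TMM over the table.

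**Figure D3:**
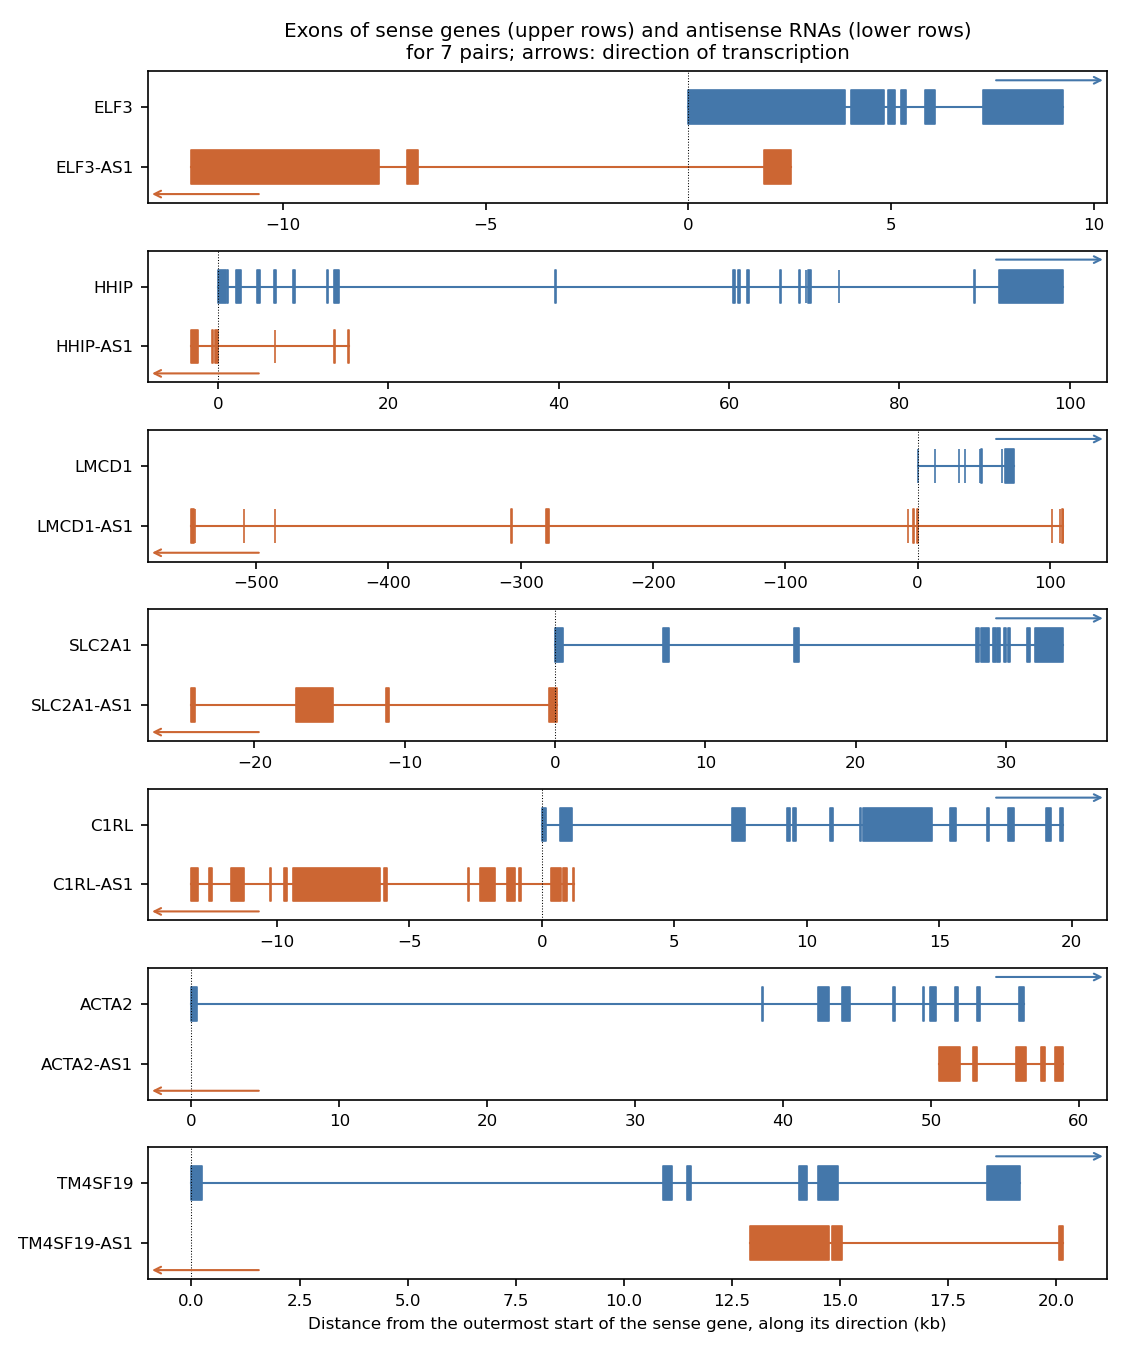
Exons in GENCODE release 29 of 7 sense genes (upper rows) and their antisense RNAs (lower rows), by distance in kb from the outermost start of the sense gene along its direction of transcription; boxes are exons of any transcript and arrows give direction. ELF3-AS1, HHIP-AS1, SLC2A1-AS1 and C1RL-AS1 cross the sense gene's start, LMCD1-AS1 runs across the whole of LMCD1, and ACTA2-AS1 and TM4SF19-AS1 lie over the far end of their sense genes.

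The ratio of antisense to sense counts within a library needs no scaling between libraries, so it does not depend on the level chosen for the groups. The log2 ratio, with 0.5 added to each count, moved furthest up in TMEM108-AS1 by 5.30 ± 1.08 (SE of the difference, n = 3 per group), then in ACTA2-AS1 by 3.70 ± 0.80, ELF3-AS1 by 2.5 ± 0.34, C1RL-AS1 by 2.39 ± 0.46 and HHIP-AS1 by 0.57 ± 0.24. In these 5 pairs all CYGB-OE ratios lay above all WT ratios. Where counts of 0 occur the size depends on the number added: with 2 in place of 0.5, the difference was 3.90 for TMEM108-AS1 and 3.31 for ELF3-AS1. In ELF3 and HHIP both partners fell and the sense gene fell more. The ratio lay wholly below WT in 6 pairs: TM4SF19-AS1 (-2.90 ± 0.22), SLC2A1-AS1 (-2.73 ± 0.45), UPK1A-AS1 (-1.65 ± 0.59), ITGB2-AS1 (-1.07 ± 0.14), CFAP58-AS1 (-0.88 ± 0.39) and KIRREL3-AS1 (-0.41 ± 0.21). Each of these 11 pairs had a two-sided exact permutation p of 0.1, the smallest that 3 libraries against 3 allow, and 0.245 after Benjamini-Hochberg adjustment over the 27 pairs, so none could pass 0.05.

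In the other 16 pairs, the ratios of the groups overlapped, and in each of them both partners had moved to the same side. The table holds only features that differ about 2-fold or more, so partners on opposite sides must differ widely in ratio. That no opposite pair overlapped therefore follows largely from this selection. Of the 21 pairs with both partners lower, the antisense RNA fell more in 13 and the sense gene in 8, with a median difference in log2 ratio of -0.15. As a description over these 21 pairs, which share libraries and in part reads, the log2 fold changes of the partners had a Pearson r of 0.732 and a Spearman rho of 0.656. Over the 20 without ELF3-AS1 they were 0.572 and 0.602. The pairs were taken because both partners fell, and smaller changes are absent from the table, so these values do not describe all pairs. Leaving out CYGB-OE replicate 1 gave 5 pairs above and 8 below, and took the ACTA2-AS1 difference to 2.96 and that of TMEM108-AS1 to 6.25. Without CYGB-OE replicate 3 the latter was 4.68.

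**Figure D4:**
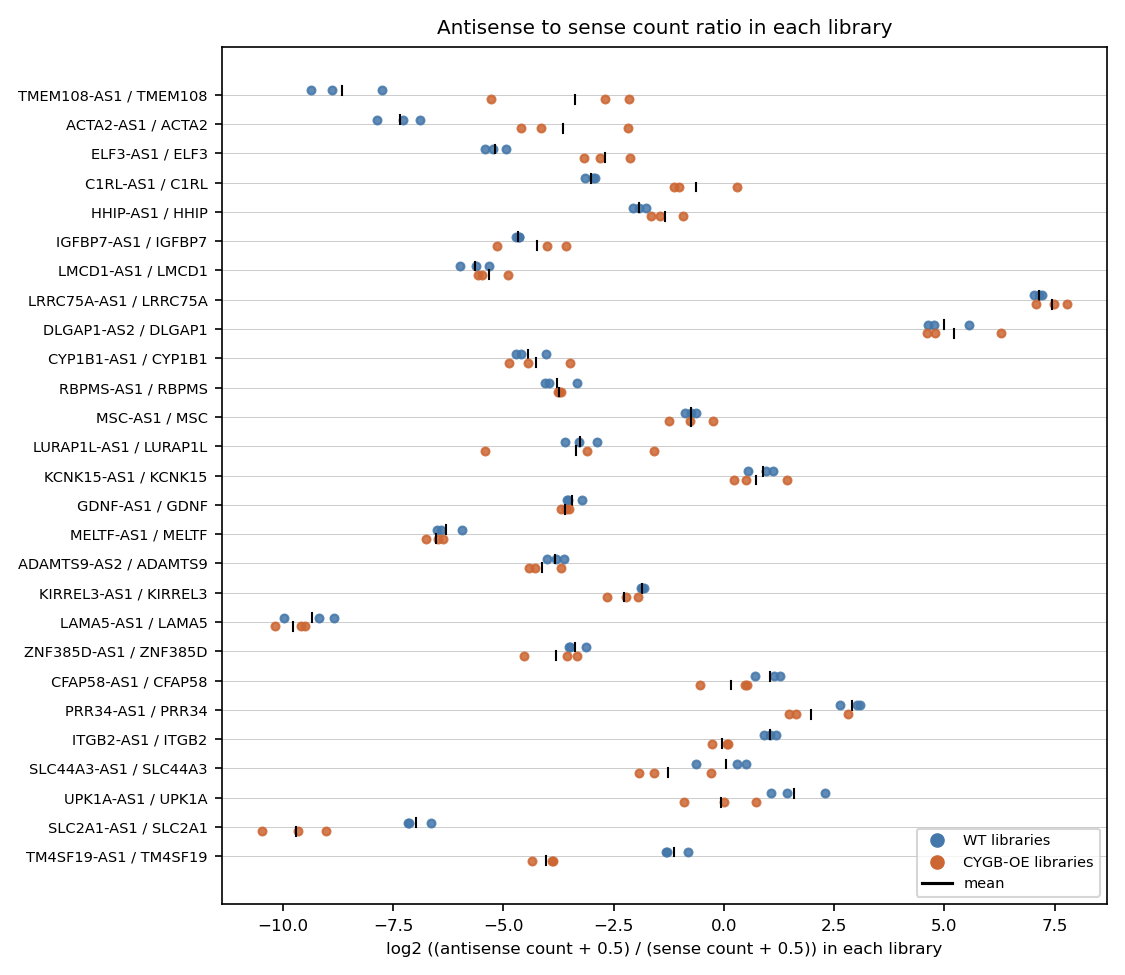
Log2 of (antisense count + 0.5) over (sense count + 0.5) in each library (horizontal axis) for the 27 pairs (vertical axis), ordered by the difference of group means; points are the 3 WT and 3 CYGB-OE libraries and ticks are group means. The 5 uppermost pairs have all CYGB-OE points to the right of WT, and 16 pairs overlap.

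Position was described for the pairs without a test. Of the 12 pairs whose 5′ ends overlap, 10 moved to the same side, as did 7 of 8 with the antisense RNA inside the sense gene, the 3 in which it spans the sense gene and the 1 divergent pair that does not overlap. The 3′ ends overlap in 3 pairs, of which 2 (ACTA2-AS1 and TM4SF19-AS1) moved to opposite sides and LRRC75A-AS1 did not. Annotated starts within 1000 bp of each other were found in 16 pairs, 14 of them on the same side, and more distant starts in 11, 8 of them on the same side. Exon sequence is shared by 18 pairs, by 57 to 678 bp, and 14 of these moved together against 8 of 9 that share none. Among antisense RNAs whose sense gene is placed on GRCh38 but is not in the table, 49 of 73 also have starts within 1000 bp, against the 16 of 27 with a table partner.

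Of the antisense RNAs whose sense gene is not in the table, the one with the highest counts that fell was EPB41L4A-AS1, a small nucleolar RNA host. It had 3426, 3191 and 3233 normalized counts in WT and 1272, 1395 and 1381 in CYGB-OE, a log2 fold change of -1.28 ± 0.10 (edgeR adjusted p = 7.63e-06). GABPB1-AS1 had 2406, 2137 and 2877 in WT and 1106, 1138 and 961 in CYGB-OE, a log2 fold change of -1.21 ± 0.13. In both the CYGB-OE libraries lay close together and far under WT, but with TMM over the table both lost their calls. CCDC18-AS1 had 705, 641 and 677 in WT and 139, 242 and 191 in CYGB-OE (-1.82 ± 0.19). ZEB1-AS1, named after the transcription factor gene ZEB1, had 369.5, 297 and 333 in WT and 91.7, 135 and 156 in CYGB-OE (-1.38 ± 0.21). The groups of both were apart, with CYGB-OE replicate 1 the lowest library, and ZEB1-AS1 lost its call with TMM over the table. FOXD2-AS1 had 529, 520.1 and 505 in WT and 247, 257 and 241 in CYGB-OE (-1.06 ± 0.12). With TMM over the table its value was 0.14 and was not called (edgeR adjusted p = 0.39). PAXIP1-AS1 had 509, 452 and 484 in WT and 193, 291 and 234 in CYGB-OE (-1.01 ± 0.17). Its value with TMM was 0.19, again not called (edgeR adjusted p = 0.40).

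Among the tested RNAs of this set, the 3 lowest log2 fold changes belonged to RNAs with 0 to 11.2 normalized counts in the CYGB-OE libraries. PTGES2-AS1, which starts 67 bp from PTGES2 and points away from it, had 123, 113 and 118 normalized counts in WT and 6.40, 11.2 and 8.18 in CYGB-OE, a log2 fold change of -3.77 ± 0.27 (edgeR adjusted p = 6.74e-06). GPC5-AS1, which lies in the glypican gene GPC5 without sharing an exon, had 33.0, 42.7 and 36.1 in WT and 4.27, 0 and 3.64 in CYGB-OE (-3.73 ± 0.52). FEZF1-AS1 had 14.3, 11.9 and 19.1 in WT and 4.27, 0 and 0.909 in CYGB-OE (-3.04 ± 0.65), and -4.59 without CYGB-OE replicate 1. Another 48 antisense RNAs had log2 fold changes of -1.01 to -2.51, with mean normalized counts of 15 to 332 in WT.

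Of the tested RNAs that rose, NPPA-AS1, SH3PXD2A-AS1 and RRS1-AS1 had the largest log2 fold changes. SH3PXD2A-AS1 had 8.80, 30.8 and 18.1 normalized counts in WT and 233, 90.5 and 55.4 in CYGB-OE, a log2 fold change of 2.66 ± 0.66 (edgeR adjusted p = 0.00569) that was 1.85 without CYGB-OE replicate 1. NPPA-AS1 had 2.20, 3.16 and 5.31 in WT and 26.7, 30.2 and 27.3 in CYGB-OE (2.94 ± 0.36). RRS1-AS1 had 3.30, 3.16 and 3.19 in WT and 19.2, 16.8 and 13.6 in CYGB-OE (2.31 ± 0.37). All CYGB-OE libraries were above all WT libraries for these 3, and the range was widest in SH3PXD2A-AS1.

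PAX8-AS1 had 42.9, 61.6 and 61.6 normalized counts in WT and 96.0, 165 and 149 in CYGB-OE (log2 fold change 1.3 ± 0.26). NDUFB2-AS1 had 38.5, 42.7 and 20.2 in WT and 78.9, 97.2 and 81.8 in CYGB-OE (1.33 ± 0.29). PTPRG-AS1 had 40.7, 37.1 and 40.4 in WT and 75.7, 87.1 and 80.9 in CYGB-OE (1.04 ± 0.20). The groups were apart in all 3. PTPRG-AS1 overlaps C3orf14, which also rose (1.20 ± 0.14). MEOX2-AS1 had 28.6, 37.9 and 24.4 in WT and 38.4, 82.6 and 70.0 in CYGB-OE (1.06 ± 0.34), and its call was lost without CYGB-OE replicate 2 (edgeR adjusted p = 0.0511). CARD8-AS1 overlapped between groups, with 26.4, 54.5 and 15.9 in WT and 93.9, 53.6 and 65.4 in CYGB-OE. Its log2 fold change of 1.1 ± 0.43 (edgeR adjusted p = 0.0308) was 1.74 without WT replicate 2, and its call was lost without replicate 1 of WT (edgeR adjusted p = 0.0956) or replicate 3 of WT (0.0867), and likewise without replicate 1 (0.0695) or 3 (0.0503) of CYGB-OE. HOXC-AS1, which was lower by its mean, was the other RNA whose groups overlapped. It lost its call without WT replicate 2, and ARHGAP31-AS1 lost its own without WT replicate 1 or CYGB-OE replicate 3; both are named for these values. The others that rose, HOXA-AS2, MBNL1-AS1, PPP1R26-AS1 and RBM15-AS1, had log2 fold changes of 1.01 to 1.36 and mean normalized counts of 40.5 to 55.6 in CYGB-OE. With p-values adjusted over all 58780 annotated genes, 55 of the 80 lower calls and 6 of the 15 higher calls were left, beside 54.8% of all tested features as lower and 19.1% as higher. Among the higher calls lost were these 4 and NDUFB2-AS1 (edgeR adjusted p = 0.0504), SH3PXD2A-AS1 (0.136), MEOX2-AS1 (0.315) and CARD8-AS1 (0.734).

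**Figure D5:**
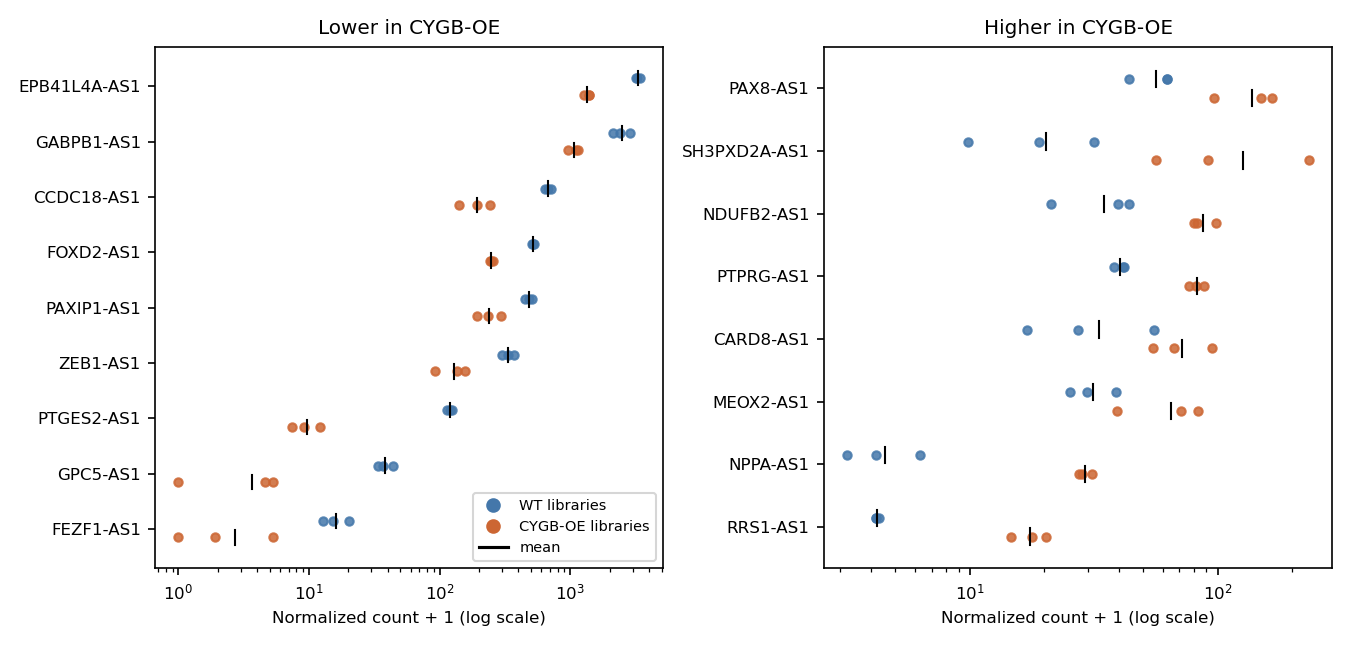
Normalized count plus 1 in each library (horizontal, log scale) for the named antisense RNAs whose sense gene is not in the table, with those that fell on the left and those that rose on the right; points are libraries and ticks are group means. CARD8-AS1 is the RNA plotted here whose WT and CYGB-OE points overlap.

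Besides TMEM108-AS1, 7 antisense RNAs had too few counts to be tested, and 6 of them are given as sums of deposited counts over the 3 libraries of a group, with intervals that cover counting error only. ROR1-AS1, which lies within the receptor tyrosine kinase gene ROR1, had 1 count in WT and 40 in CYGB-OE, a normalized ratio of 42.5 (95% interval 7.2 to 1719). SLC12A5-AS1 had 36 and 1 (33.9-fold lower, 5.71 to 1376) and SSBP3-AS1 29 and 1 (27.3-fold lower, 4.53 to 1115). TMC3-AS1 had 45 and 8 (5.30-fold lower, 2.47 to 13). CCDC13-AS1 had 26 and 0, and LRRC2-AS1 15 and 0, so they were at least 8.16-fold and at least 4.71-fold lower against a floor of 3 counts over the group. Of these 6, ROR1-AS1 was the one on the higher side.

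Other names in the table give the setting for these counts. By group means, 83.5% of the 103 were lower, against 77.5% of 80 LINC-named RNAs, 71.6% of 169 genes that GENCODE types as antisense but that carry other names, 72.7% of 1796 protein-coding genes and 70.7% of all features. In smaller classes, 1 of 5 names ending in -IT, -OT or -DT and 1 of 3 SNHG names were lower. Among host genes of MIR names, 7 of 9 were lower. The difference between these shares was not tested. The median log2 fold change was -1.58 for LINC names and -1.31 for the other antisense-typed genes. Of 40 genes listed for the processing or decay of antisense and promoter-upstream RNA (exosome subunits, its adaptors, decapping and RNA interference enzymes), 1 was in the table: MPHOSPH6, an exosome-associated protein gene, rose with 316.5 ± 20.1 normalized counts in WT and 711.4 ± 57.6 in CYGB-OE (SD, n = 3) and a log2 fold change of 1.17 ± 0.12 (edgeR adjusted p = 3.3e-05).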

How the data were processed

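RNA of A375 cells was sequenced in 3 WT and 3 CYGB-OE libraries. The submitters' processing notes name Trimmomatic 0.36 and STAR 2.5.2b, then featureCounts from Subread 1.5.2, on build GRCh38. Annotation, strand setting and the rule that selected the features were not given in the sources used here. For 2778 features, the authors deposited raw counts per feature, 1 column per library, and 163 features carry no gene name. The log2 ratios of group means leave an empty band 1.99 wide, as a 2-fold selection does. The antisense RNAs, the gene lists and the rule for named genes were chosen with earlier results of these data known: every RNA with its sense gene in the table, of the rest the 6 higher and 6 lower with the highest mean count, and the 3 of each with the largest fold change.

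From the counts, edgeR 4.0.16 (R 4.3.3; filterByExpr, minimum count 10; quasi-likelihood F test, robust, group as the only term, two-sided) was fitted on the whole table, with Benjamini-Hochberg adjustment over 2465 features and a threshold of 0.05. TMM factors were taken within groups, and the level separating the groups put the middle of the empty band at 0. SEs of fold changes were derived from the F statistic. Unnamed features stayed in the fit. Alternatives were other scalings, filters and tools (DESeq2 1.42.0, limma 3.58.1), a replicate block and leaving out each library. Library pairs within a group differed by more than counting noise, so none was taken as a duplicate. Positions and exons were taken from GENCODE release 29 and promoters from RefSeq. The values of 1 antisense RNA with low counts are not reported here.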

Additional observations from a re-analysis of the deposited data

How the results depend on the processing

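No called antisense RNA lost its call with DESeq2's Wald test, limma-voom or no filter on low counts, and total counts ended the call of HOXC-AS1 alone. Scaling mattered most. The count of lower RNAs, 80, was 11 with TMM over the table, 11 with DESeq2 size factors and 35 with upper-quartile factors, where 18.7%, 18.6% and 36% of all features tested were lower; these scalings moved the named values up by medians of 1.2, 1.2 and 0.86. The higher count, 15, was 6 after adjustment over all annotated genes. Pairs on the same side numbered 22 in the tested set and 11 with a minimum count of 20; opposite pairs numbered 4, then 9 with TMM, 9 with DESeq2 size factors and 1 with the minimum count of 20, which leaves fewer RNAs to test. Log2 fold changes that reversed, with TMM and DESeq2 size factors in turn, were DLGAP1-AS2 (0.0735 and 0.0837), FOXD2-AS1 (0.139 and 0.146), LRRC75A-AS1 (0.131 and 0.136), PAXIP1-AS1 (0.191 and 0.195), RBPMS-AS1 (0.0347 and 0.0402), C1RL (0.0827 and 0.0869), GDNF (0.0761 and 0.0853), ITGB2 (0.0599 and 0.0647), LAMA5 (0.103 and 0.109), MELTF (0.108 and 0.118), RBPMS (0.0423 and 0.0475) and TMEM108 (0.114 and 0.118). None of these reversed values was called as higher (edgeR adjusted p of 0.34 to 0.94). Leaving out 1 library gave 14 to 17 higher, 80 to 83 lower, 22 same-side and 4 to 5 opposite pairs, and 5 to 7 pairs with the ratio above WT and 6 to 8 below. Ratio differences that reversed were near 0 or spread widely. With a pseudocount of 2, LURAP1L-AS1 was 0.272 and MSC-AS1 0.000898. Leaving out 1 library in turn, the difference ran from -0.999 to 0.910 for LURAP1L-AS1, -0.255 to 0.234 for MSC-AS1, -0.215 to 0.482 for CYP1B1-AS1, -0.287 to 0.551 for DLGAP1-AS2, -0.505 to 0.0952 for KCNK15-AS1 and -0.0804 to 0.276 for RBPMS-AS1. The cause of these reversals was not tested.

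Replicate numbers are shared between the groups, but same-numbered libraries did not deviate together (r = -0.0148, -0.0727 and 0.00546), so they were not treated as pairs. Whether they shared a culture or preparation was not tested. A replicate block gave 15 higher and 80 lower RNAs and 22 same-side and 4 opposite pairs. Low counts limit 8 RNAs to ratios with wide intervals, and the strand of the reads limits every value in shared exons.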

Other observations

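Antisense names without a number were outside the naming rule. PINK1-AS, named after the mitochondrial kinase gene PINK1, had 97.9, 144 and 134 normalized counts in WT and 421, 307 and 324 in CYGB-OE, a log2 fold change of 1.48 ± 0.20 (edgeR adjusted p = 0.000154). DM1-AS had 148, 124 and 117 in WT and 41.6, 51.4 and 58.2 in CYGB-OE, a log2 fold change of -1.36 ± 0.21 (edgeR adjusted p = 0.000305). The groups of both were apart, in opposite directions.

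In 3 cases an antisense RNA whose own sense gene is not in the table overlapped another table gene on the opposite strand, and each moved to the same side as that gene. CBR3-AS1 fell with DOPEY2 (log2 fold change -1.13 ± 0.14), UGDH-AS1 fell with SMIM14 (-1.08 ± 0.12), and PTPRG-AS1 rose with C3orf14. These features were chosen after their values were seen.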
